A study of Mus musculus with 6 samples.

Results

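The Dlx homeobox family was followed in the heads of embryonic day 9.5 mouse embryos. Its members are Dlx1, Dlx2, Dlx3, Dlx4, Dlx5 and Dlx6, 6 of 20021 genes that could be named on the array. They were taken as the non-control probes whose RefSeq accession belongs to a Dlx gene. Each gene was read by 1 probe, and all 6 probes passed the filter on dim signals. The series compared 3 samples from Arid3b-null embryos with 3 samples from wild type embryos. Each sample held RNA of the head with the first branchial arch from 4 pooled embryos, hybridised to 1 one-colour Agilent array. Arid3b encodes a member of the ARID family of DNA-binding proteins. The sources used here give neither the strain nor how the null allele was made.

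Dlx genes encode homeodomain transcription factors, the vertebrate relatives of Distal-less of the fly. They lie in the genome as linked pairs that face each other, Dlx1 with Dlx2, Dlx3 with Dlx4 and Dlx5 with Dlx6, and each pair shares enhancers in the stretch between its genes. In the crest-derived mesenchyme of the branchial arches the pairs are nested: Dlx1 and Dlx2 are expressed along most of the arch, Dlx5 and Dlx6 in its ventral part, which makes the lower jaw, and Dlx3 and Dlx4 nearest to the ventral tip. Endothelin signalling maintains the ventral pairs, and loss of Dlx5 and Dlx6 together turns the lower jaw into a copy of the upper jaw. Dlx genes also act in the surface ectoderm, the otic vesicle and the ventral forebrain, and markers of these tissues were read on the same arrays.

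On every array 67.9% to 70.3% of spots other than controls gave a signal well above background, and no spot was saturated. The 75th percentile of the signal, used for scaling, was 977 units for null replicate 3 and 626 to 715 units for the other arrays. Each slide held the null and the wild type array of 1 replicate number, with every null array in position 2 and every wild type array in position 1, so that position and genotype cannot be told apart. The probe of Arid3b that was the brightest averaged 1.26 ± 0.19 in null heads and 2.45 ± 0.58 in wild type heads (log2 signal relative to the 75th percentile of the array, SD, n = 3 each), a log2 difference of -1.19 ± 0.29 (SE; limma adjusted p = 0.0266). Its other probes, both dimmer, gave -1.37 ± 0.30 and -2.33 ± 0.16 (adjusted p over all probes of 0.0224 and 7.59e-04). The sources used here do not say which stretch of the gene the null allele lacks. For the brightest, the call did not hold when any 1 of the null arrays was left out (adjusted p of 0.0696 to 0.0891) and without the filter on dim signals (0.0599). Wild type replicate 2 stood apart in heart muscle transcripts. Myl4, an atrial myosin light chain, was -2.59, -2.39 and -2.52 in null heads, against -2.70, 0.93 and -1.86 in wild type heads. Tnnt2, cardiac troponin T, was -5.41, -5.93 and -5.49 in null heads, against -5.69, -2.50 and -3.96 in wild type heads. Wild type replicate 3 also lay above every null head for both transcripts. Across all genes, 3508 of 14916 changed at an adjusted p under 0.05, which is 23.5%. Of all tested genes 12.3% were higher and 11.2% were lower in null heads.

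Of the 6 Dlx genes, Dlx1 and Dlx2 fell in Arid3b-null heads and Dlx3, Dlx4, Dlx5 and Dlx6 did not pass the test. The share of members called, 2 of 6, stands beside 23.5% of all genes. No member rose. The median log2 difference of the 6 members was -0.34, beside -0.04 over all genes, and all 6 estimates were below 0. The heads are bulk samples, so fewer cells that express a gene and less of its RNA per cell cannot be told apart. Log2 values below are relative to the 75th percentile of each array, in the order of replicates 1, 2 and 3, and differences are null minus wild type with the standard error of limma. Signals of different probes are not set against each other, since each probe binds with its own strength, so the pairs are compared by their differences.

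The promoter windows of the 3 Dlx transcripts that fell, Dlx1, Dlx2 and the noncoding Dlx6os1 described below, are shown from RefSeq (assembly GRCm38.p6), each from 250 bases before to 50 after a listed start site, 5′ to 3′. Capitals mark TAATTA, a core sequence that many homeodomain proteins bind and that reads the same on both strands. It was found in 5.29% of 32851 promoter windows of this length. RefSeq lists more than 1 start for Dlx6os1, and both of its windows are given. The windows of Dlx1 and Dlx2 held no TAATTA, those of Dlx6os1 held 2 and 1.
Dlx1, chr2:71529195-71529494, plus strand: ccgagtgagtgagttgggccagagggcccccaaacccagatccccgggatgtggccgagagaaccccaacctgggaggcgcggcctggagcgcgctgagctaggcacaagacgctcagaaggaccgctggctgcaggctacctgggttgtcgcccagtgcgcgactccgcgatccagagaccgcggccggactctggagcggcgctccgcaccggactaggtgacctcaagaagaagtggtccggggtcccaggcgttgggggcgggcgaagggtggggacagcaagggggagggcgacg
Dlx2, chr2:71546705-71547004, minus strand: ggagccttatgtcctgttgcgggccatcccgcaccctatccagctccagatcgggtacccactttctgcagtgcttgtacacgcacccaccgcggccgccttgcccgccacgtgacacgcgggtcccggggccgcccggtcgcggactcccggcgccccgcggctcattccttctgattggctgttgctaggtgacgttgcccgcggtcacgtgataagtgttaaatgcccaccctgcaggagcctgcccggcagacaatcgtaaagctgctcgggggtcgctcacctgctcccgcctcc
Dlx6os1, chr6:6869484-6869783, minus strand: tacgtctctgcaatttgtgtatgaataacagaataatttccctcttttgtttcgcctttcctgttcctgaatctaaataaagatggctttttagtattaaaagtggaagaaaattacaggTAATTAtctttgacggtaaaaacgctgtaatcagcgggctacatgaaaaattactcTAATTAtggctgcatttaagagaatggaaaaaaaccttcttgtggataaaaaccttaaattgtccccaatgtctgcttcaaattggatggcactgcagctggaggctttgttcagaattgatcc
Dlx6os1, chr6:6861634-6861933, minus strand: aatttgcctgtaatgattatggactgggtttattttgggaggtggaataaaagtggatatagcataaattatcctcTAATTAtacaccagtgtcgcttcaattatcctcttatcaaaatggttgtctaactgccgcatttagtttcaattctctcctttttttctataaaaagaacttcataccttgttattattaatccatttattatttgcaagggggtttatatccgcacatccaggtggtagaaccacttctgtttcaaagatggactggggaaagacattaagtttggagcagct
The windows of Dlx1 and Dlx2 were 30.7% and 33.7% A or T, against a median of 47.3% over all windows. Those of Dlx6os1 were 64.3% and 64.7% A or T, above the 95th percentile of all windows (63.7%). A match to TAATTA is a description of these letters and not a measured binding site. The window of Dlx6os2, a measured transcript that did not pass the test, held no TAATTA and was 48.3% A or T, and that of Dlx4os held none and was 46.7% A or T. The table used holds no window for Dlx3, Dlx4, Dlx5 and Dlx6.

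Dlx1 and Dlx2 are the pair that is expressed most widely along the arch, and together they are needed for the upper jaw and for the migration of forebrain interneurons. Dlx1 had log2 values of -3.46, -3.70 and -3.36 in null heads, against -1.98, -2.32 and -1.73 in wild type heads. Every null array lay below every wild type array, and the gap between the groups was wider than the spread within either. Groups without overlap were seen for 42.4% of all tested genes. Dlx1 averaged -3.51 ± 0.17 in null heads and -2.01 ± 0.30 in wild type heads (SD, n = 3 each), 2.82-fold lower (log2 difference -1.50 ± 0.19, 95% interval -1.94 to -1.05, limma adjusted p = 0.00329). Its signal in null heads was thus 35.4% of that in wild type heads.

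The Dlx2 probe had log2 values of -0.42, -0.50 and -0.90 in null heads, against 0.67, 0.46 and 0.43 in wild type heads. The groups did not overlap here either, and null replicate 3 was the lowest array after scaling. Its unscaled Dlx2 signal of 524 units was the highest of the null heads (518 and 442 in replicates 1 and 2). Dlx2 averaged -0.61 ± 0.26 in null heads and 0.52 ± 0.13 in wild type heads (SD, n = 3 each), 2.19-fold lower (log2 difference -1.13 ± 0.17, 95% interval -1.53 to -0.73, limma adjusted p = 0.00542). Within slides 1, 2 and 3 the difference was -1.48, -1.37 and -1.64 for Dlx1 and -1.09, -0.96 and -1.33 for Dlx2. Ordered from the strongest fall upwards, Dlx1 stood at place 159 and Dlx2 at place 402 of 14916 genes. Without wild type replicate 2 the difference was -1.65 for Dlx1 (adjusted p = 0.00515) and -1.16 for Dlx2 (0.0183). Both genes were called under each of the 16 alternatives run, with log2 differences of -1.65 to -0.99 for Dlx1, the smallest with normexp background correction, and -1.22 to -0.96 for Dlx2. Several of these alternatives could not change the estimate of a gene with 1 probe.

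**Figure D1:**
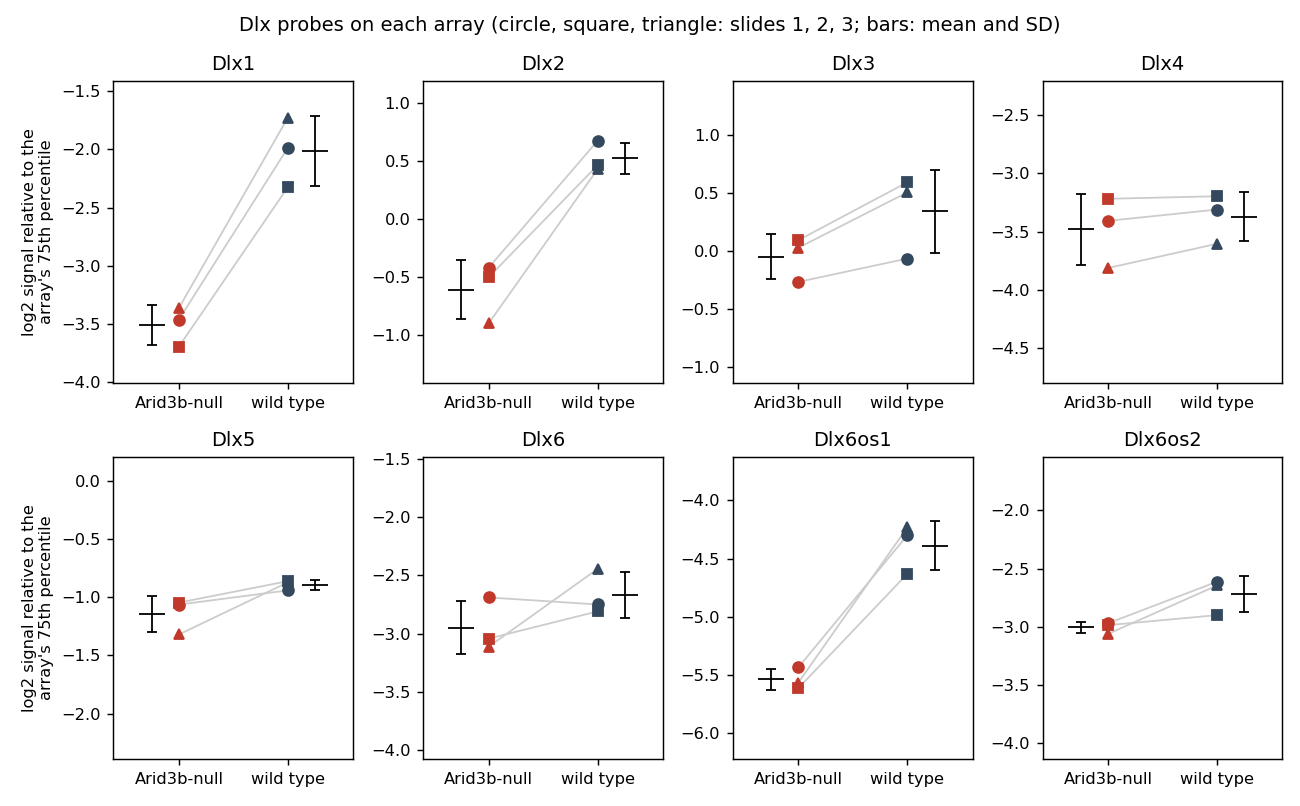
Log2 signal of each Dlx probe relative to the 75th percentile of its array, with Arid3b-null arrays in red on the left and wild type arrays in blue on the right of each panel. Circles, squares and triangles are slides 1, 2 and 3, grey lines join the arrays of a slide, black bars give the mean and SD (n = 3), and all panels span the same range of log2 units. The groups lie well apart for Dlx1, Dlx2 and Dlx6os1, and close together or overlapping for the others.

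Dlx3 and Dlx4 mark the most ventral mesenchyme of the arch, and Dlx3 is also expressed in surface ectoderm, where it acts in skin, hair and teeth. Dlx3 had log2 values of -0.26, 0.10 and 0.03 in null heads, against -0.06, 0.59 and 0.51 in wild type heads. The groups overlapped, because wild type replicate 1 lay below 2 of the null arrays. The difference of Dlx3 was -0.39 ± 0.21 (95% interval -0.89 to 0.11, limma adjusted p = 0.222), and it was -0.20, -0.50 and -0.48 within slides 1, 2 and 3. Dlx3 was called lower only with array weights (log2 difference -0.72, adjusted p = 0.00409), which gave wild type replicate 1 a weight of 0.61 and wild type replicate 2 a weight of 5.44. With array weights 62.2% of all tested genes were called. Without wild type replicate 3, the array with the lowest weight (0.19), 34.7% of all genes were called and Dlx1 and Dlx2 were again the only Dlx genes among them.

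Dlx4 had log2 values of -3.41, -3.22 and -3.81 in null heads, against -3.31, -3.20 and -3.61 in wild type heads, and the groups were interleaved. Its difference was -0.11 ± 0.20 (95% interval -0.58 to 0.36, limma adjusted p = 0.731). The interval of Dlx4 holds a fall of up to 0.58 on the log2 scale, so a small change in either direction was not detectable with 3 arrays per group. Without null replicate 3 the estimate for Dlx4 was 0.06.

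Dlx5 and Dlx6 set ventral identity in the arch, and Dlx5 is also expressed in the otic vesicle and the olfactory placode. Dlx5 had log2 values of -1.06, -1.05 and -1.32 in null heads, against -0.94, -0.86 and -0.87 in wild type heads. The groups did not overlap, which was so for 42.4% of all tested genes, but the gap was small beside the spread of the null arrays. The difference of Dlx5 was -0.25 ± 0.14 (95% interval -0.57 to 0.07, limma adjusted p = 0.222), and it was -0.12, -0.18 and -0.45 within slides 1, 2 and 3. With array weights Dlx5 was called lower (log2 difference -0.22, adjusted p = 0.0434).

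Dlx6 had log2 values of -2.69, -3.04 and -3.11 in null heads, against -2.75, -2.81 and -2.44 in wild type heads. Null replicate 1 lay above 2 of the wild type arrays. The difference of Dlx6 was -0.28 ± 0.17 (95% interval -0.69 to 0.13, limma adjusted p = 0.285), and it was 0.06, -0.23 and -0.67 within slides 1, 2 and 3. With array weights the sign turned, to 0.02 (adjusted p = 0.894).

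The Dlx loci also make noncoding RNAs, of which those on the array were read by 1 probe each. Dlx6os1, also known as Evf2, is transcribed across Dlx6 and is known in the forebrain as a regulator of Dlx5 and Dlx6. It had log2 values of -5.44, -5.62 and -5.57 in null heads, against -4.30, -4.63 and -4.23 in wild type heads, with no overlap of the groups. Dlx6os1 averaged -5.54 ± 0.09 in null heads and -4.39 ± 0.21 in wild type heads (SD, n = 3 each), 2.22-fold lower (log2 difference -1.15 ± 0.15, 95% interval -1.52 to -0.79, limma adjusted p = 0.00380). Its signal was dim, 12.8 to 20.6 units in null heads against 28.8 to 35.1 units in wild type heads, and with normexp background correction the call was lost (log2 difference -0.45, adjusted p = 0.0638). Within slides 1, 2 and 3 the difference of Dlx6os1 was -1.14, -0.98 and -1.34.

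Dlx6os2, another noncoding transcript of the same locus, had log2 values of -2.97, -2.99 and -3.06 in null heads, against -2.61, -2.90 and -2.65 in wild type heads. Its difference was -0.29 ± 0.14 (limma adjusted p = 0.173), close to the estimates for the coding genes Dlx5 and Dlx6. Dlx1as, the antisense transcript of Dlx1, was not well above background on any array and was not tested. Dlx4os was not analysed here. With probes rather than genes as rows, 3 Dlx probes were called, those of Dlx1, Dlx2 and Dlx6os1, beside 18% of all 26299 probes tested. Dlx6os1 and Dlx6os2 overlap Dlx6 in the RefSeq table, and the sources used here do not place the probes within these transcripts.

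**Figure D2:**
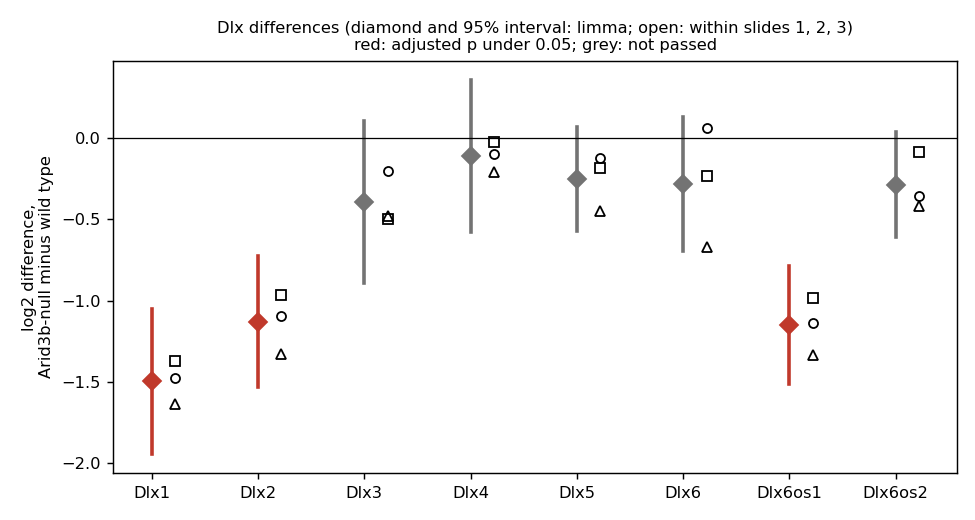
Log2 differences, Arid3b-null minus wild type, of the 6 Dlx genes and 2 noncoding Dlx transcripts. Diamonds and lines are the limma estimate and its 95% interval, open symbols the differences within slides 1, 2 and 3 (circle, square, triangle), and red marks an adjusted p under 0.05. The intervals of Dlx1, Dlx2 and Dlx6os1 lie wholly below 0 and those of Dlx3, Dlx4, Dlx5, Dlx6 and Dlx6os2 cross it.

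Whether members changed unequally was examined by the log2 ratio of 2 Dlx probes on the same array, which does not depend on the scaling of arrays. There are 15 such ratios. A two-sided exact permutation test of 3 arrays against 3 cannot give a p below 0.1, so no ratio could pass a threshold of 0.05. Each of the 8 ratios that set Dlx1 or Dlx2 against Dlx3, Dlx4, Dlx5 or Dlx6 separated the null from the wild type arrays without overlap, each with the smallest exact p of 0.1 (0.188 after Benjamini-Hochberg adjustment over the 15 ratios). Among single genes 42.4% did not overlap, and no such share was computed for ratios. The 8 ratios all draw on the falls of Dlx1 and Dlx2 given above, so they are not separate results. These ratios were lower in null heads by amounts from -0.74, for Dlx2 against Dlx3, to -1.39, for Dlx1 against Dlx4. None of the other 7 ratios separated the groups, with exact p of 0.3 to 0.8.

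Among the 7 ratios that did not separate the groups are those of the 3 linked pairs, and the 4 unlinked ratios among Dlx3 to Dlx6 shifted by -0.14 to 0.17. The ratio of Dlx1 to Dlx2 was -3.04, -3.19 and -2.46 in null heads, against -2.66, -2.79 and -2.15 in wild type heads, a shift of -0.37 (exact p = 0.3). The groups overlapped, but within slides 1, 2 and 3 the ratio of Dlx1 to Dlx2 shifted by -0.39, -0.41 and -0.31, the same way each time. With normexp background correction the shift over all arrays was 0.06. The ratio of Dlx3 to Dlx4 shifted by -0.28 (exact p = 0.5) and that of Dlx5 to Dlx6 by 0.03 (exact p = 0.8). For Dlx5 and Dlx6 the mean ratio was 1.81 ± 0.19 in null heads and 1.78 ± 0.19 in wild type heads (SD, n = 3 each), so the shift was well below the spread between arrays.

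The genes beside each pair were read in the order of the RefSeq gene table (assembly GRCm38.p6, used for order only), taking 5 named genes on each side. Of these 30 neighbours 25 were measured, and 9 of them passed the test, 6 higher and 3 lower, which is 36% beside 23.5% of all genes. Beside Dlx1 and Dlx2, where 5 of 8 measured neighbours were called, the changes ran both ways. Slc25a12, a mitochondrial carrier of aspartate and glutamate, was lower (log2 difference -1.21 ± 0.13, limma adjusted p = 0.00231), as was Cybrd1, a ferric reductase (-0.96 ± 0.14, adjusted p = 0.00491; not called with normexp, 0.0867). Pdk1, a kinase that restrains pyruvate dehydrogenase and responds to low oxygen, was 3.20-fold higher (log2 difference 1.68 ± 0.14, adjusted p = 9.17e-04). The kinase gene Map3k20 was 2.72-fold higher (log2 difference 1.44 ± 0.20, adjusted p = 0.00434; 0.62 with normexp). Itga6, an integrin chain, was higher by 0.54 ± 0.15 (adjusted p = 0.0398), a call that was lost with slide as a block (0.0668), without the filter on dim signals (0.0814) and without any 1 array other than wild type replicate 3 (0.0693 to 0.153). The 3 measured neighbours that were not called, Metap1d among them as the nearest gene on the Dlx1 side, had differences of 0.03 to 0.07 at their brightest probes. A second probe gave 0.49 for Metap1d and -0.26 for Hat1, also not called (limma adjusted p over all probes of 0.273 and 0.233).

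Beside Dlx3 and Dlx4, 2 of 8 measured neighbours were called, which is 25% and close to the 23.5% of all genes. Pdk2, another kinase of pyruvate dehydrogenase, was 2.32-fold higher (log2 difference 1.22 ± 0.21, limma adjusted p = 0.00839), and Slc35b1, a nucleotide carrier of the endoplasmic reticulum, was 2.45-fold lower (log2 difference -1.29 ± 0.19, adjusted p = 0.00495). Beside Dlx5 and Dlx6, 2 of 9 were called, both higher, which at 22.2% is also close to that share. Asns, the asparagine synthetase that Atf4 induces, was 2.83-fold higher (log2 difference 1.50 ± 0.16, adjusted p = 0.00209), and Tac1, which encodes substance P, was 2.09-fold higher (log2 difference 1.07 ± 0.20, adjusted p = 0.0114; 0.0508 without null replicate 1, and a difference of 0.62 with normexp). The highest of the others was Itga3, an integrin chain and the nearest gene on the Dlx3 side, at 1.13 ± 0.42 (adjusted p = 0.0946), which was called with slide as a block (0.0351). The neighbours that were not called had differences of -0.30 to 1.13 beside Dlx3 and Dlx4 and of -0.60 to 0.50 beside Dlx5 and Dlx6.

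**Figure D3:**
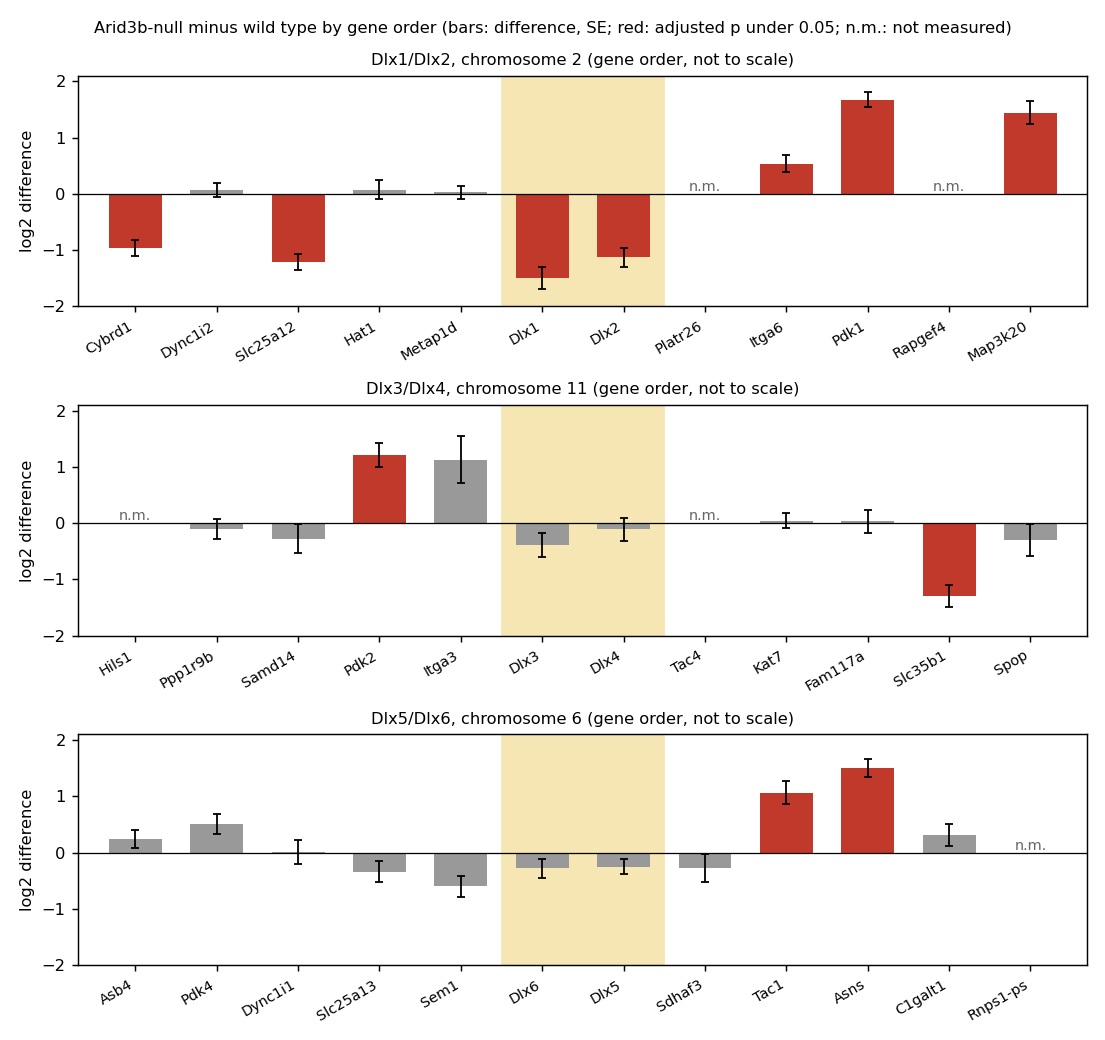
Log2 difference, Arid3b-null minus wild type, of the genes on either side of each linked Dlx pair (shaded) in gene order; distances are not drawn to scale. Bars show the limma difference and its SE, red marks an adjusted p under 0.05, and n.m. stands for a gene with no probe or with none well above background. Dlx1 and Dlx2 are both lower with neighbours that rose, fell or did not pass, and Dlx3 to Dlx6 show short grey bars.

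Signals that act above the Dlx genes in the arch were examined next. Of 10 genes of endothelin, Bmp and Fgf signalling 7 rose and none fell, with a median log2 difference of 0.66 beside -0.04 for all genes. Over all tested genes 12.3% were higher and 11.2% lower, and the counts on each list below stand beside these shares. Bmp4, a growth factor of the ventral arch, was 1.82-fold higher (log2 difference 0.87 ± 0.13, limma adjusted p = 0.00491). Edn1, the ligand that maintains ventral Dlx expression, rose by 0.68 ± 0.19 (adjusted p = 0.0418), and its receptor gene Ednra by 0.67 ± 0.13 (adjusted p = 0.0118). With normexp 5 genes were higher and 1 lower, and 1 was also called lower with an intensity trend, with array weights and without wild type replicate 1. The count of 7 fell to 1 without null replicate 1 or without null replicate 2, and to 3 and 4 without wild type replicates 1 and 2, 4 without null replicate 3 and 4 without the filter on dim signals. Without null replicates 1 and 2 Ednra was not called (adjusted p of 0.0598 and 0.0539). Edn1 lost its call with normexp (0.216), in the deposited value table (0.0509), without the filter (0.0855) and without any 1 array other than wild type replicate 2 (0.0513 to 0.131). The median stayed between 0.46 and 0.71 over the alternatives.

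Among 12 transcription factor genes of the mandibular arch 5 fell and 2 rose, with a median of -0.63 (-0.30 with normexp, and -0.17 over the 11 genes well above background on all 6 arrays). Hand2, a helix-loop-helix factor of the ventral arch that depends on Dlx5 and Dlx6, was 6.70-fold lower (log2 difference -2.74 ± 0.29, limma adjusted p = 0.00197; -2.10 with normexp). Pitx1, a homeodomain factor of the lower jaw, was 2.14-fold lower (log2 difference -1.10 ± 0.14, adjusted p = 0.00305). Gsc, a homeodomain factor that is also lost when Dlx5 and Dlx6 are missing, differed by -0.17 ± 0.15 (adjusted p = 0.466), and was called lower with array weights alone (-0.26, adjusted p = 0.0313). Hand1, of the most ventral arch, had a difference of -2.76 ± 0.92 that did not pass (adjusted p = 0.0710; 0.00532 with array weights). Hand1 was -3.42, -6.15 and -4.63 in null heads, against -3.15, -0.17 and -2.61 in wild type heads. Wild type replicate 2, the array with the highest Myl4 and Tnnt2, was the highest, and without it the difference was -1.85 (adjusted p = 0.135). With normexp the difference of Hand1 was -1.56.

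The strongest called falls on this list were in Lhx8, a LIM homeodomain factor of the oral side of the arch, with a log2 difference of -3.15 ± 0.26 (8.90-fold lower, limma adjusted p = 9.17e-04), and in Hand2. Lhx8 was -4.19, -4.07 and -4.46 in null heads, against -0.58, -1.54 and -1.14 in wild type heads. Barx1, a homeodomain factor of the molar region, was 5.05-fold lower (log2 difference -2.34 ± 0.25, adjusted p = 0.00204). Foxf1, a forkhead factor, had a probe not well above background in any null head. Its fall was called (limma adjusted p = 0.00209), but not with normexp (log2 difference -0.37, adjusted p = 0.140). With null signals under the floor defined below raised to it, Foxf1 was 2.61-fold lower. Both genes that rose, Msx2 (0.87, adjusted p = 0.0171) and Alx4 (0.76, adjusted p = 0.0141), lost their calls without null replicate 1 (0.0771 and 0.0669) or null replicate 2 (0.0651 and 0.0581). Alx4 also lost its call with normexp (log2 difference 0.28, adjusted p = 0.191). On the list of 8 maxillary and dorsal factors, 1 fell and none was called higher, with a median of 0.30. Nr2f2, a nuclear receptor, lay close to the threshold at 0.51 ± 0.15 (adjusted p = 0.0527), and it was called higher in 8 of 16 alternatives, with slide as a block among them (0.0417). The gene that fell, Pou3f3, differed by -1.12 ± 0.30 (adjusted p = 0.0362), and its call was lost without wild type replicate 1, without any 1 null array (adjusted p of 0.0530 to 0.110 over these) and without the filter (0.0769).

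In the forebrain Dlx1, Dlx2 and Dlx6os1 belong with genes of the ventral telencephalon, and of 10 such genes 4 fell and 1 rose in null heads, with a median of -0.62. Gsx2 and Gad1 passed the filter on dim signals only through the group where they were higher. Over the 8 genes well above background on all 6 arrays, 3 fell and 0 rose, with the same median. Gsx1, a homeodomain factor of the ganglionic eminence, was 4.26-fold lower (log2 difference -2.09 ± 0.21, limma adjusted p = 0.00158; -1.16 with normexp). Gsx2, its relative that acts above Dlx2 in the forebrain, was 3.23-fold lower (log2 difference -1.69 ± 0.31, adjusted p = 0.0106; -0.53 with normexp and -0.996 with array weights). The Gsx2 probe was dim, and well above background in 2 of the 3 null heads. Vax1, a homeodomain factor of the basal forebrain, fell by 1.37 on the log2 scale (adjusted p = 0.00368), and Nkx2-1, which marks the medial ganglionic eminence and hypothalamus, fell by 1.20 (adjusted p = 0.0105; 0.0509 without null replicate 1). Gad1, which encodes an enzyme of GABA synthesis, had a probe not well above background in any wild type head. Its rise was called (limma adjusted p = 0.00287), but not with normexp (log2 difference 0.25, adjusted p = 0.255). With wild type signals under the floor defined below raised to it, Gad1 was 3.32-fold higher in null heads.

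**Figure D4:**
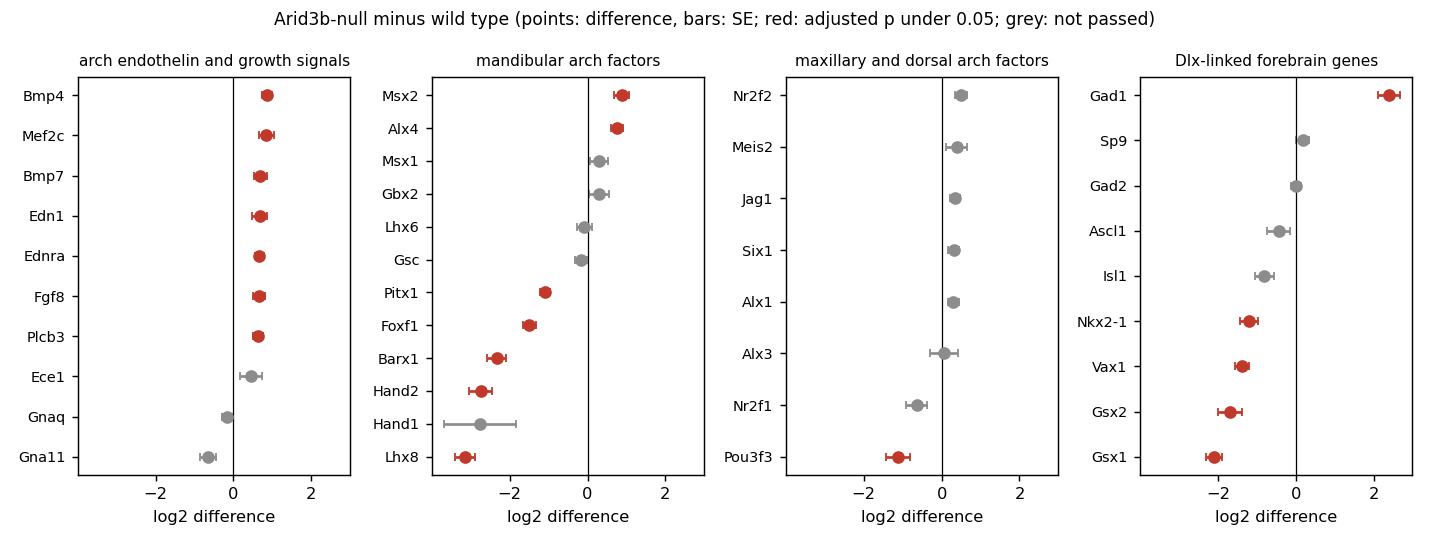
Log2 differences, Arid3b-null minus wild type, of genes on 4 lists, with 1 gene per line. Points and bars are the limma difference and its SE, and red marks an adjusted p under 0.05. Of the signals 7 of 10 are red and right of 0, and 5 mandibular factors and 4 forebrain genes are red and left of 0.

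Markers of the tissues that could hold Dlx transcripts were read on the same arrays, as the sum of their linear signals relative to the 75th percentile. Such a sum is set mostly by the brightest markers of a list. Among otic markers, for example, Eya1 averaged 3.63 on the log2 scale in wild type heads and Oc90 -1.85. A sum therefore does not measure how much of a tissue was present. The sum of 8 neuroepithelial markers was 34.6 to 36.4 in null heads against 56.5 to 62.2 in wild type heads, with 4 markers lower and none higher. Fabp7, a fatty acid binding protein of radial glia, fell by 1.56 on the log2 scale (limma adjusted p = 0.00388) and Nes, the intermediate filament of neural progenitors, by 0.93 (adjusted p = 0.00477). Hes5 (-0.54, adjusted p = 0.0824), Sox2 (-0.12, 0.556), Msi1 (-0.11, 0.825) and Pax6 (0.23, 0.723) did not pass. The 4 called markers thus fell along with Dlx1, Dlx2 and Dlx6os1, and their part in those falls was not tested. The sum of the 10 forebrain genes was 2.43 to 2.57 in null heads against 3.30 to 4.51 in wild type heads.

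The sum of 10 markers of cranial crest mesenchyme was 25.5 to 26.7 in null heads against 23.4 to 25.6 in wild type heads. Of these markers 2 were higher and 1 lower, beside 12.3% and 11.2% of all genes. Tfap2a, a crest and ectoderm factor, rose by 0.97 ± 0.13 (limma adjusted p = 0.00347). For Prrx1, a mesenchymal homeodomain factor, the brightest probe gave -0.85 (adjusted p = 0.0129), but the mean of its probes gave -0.09 (0.763). The sum of 10 surface ectoderm markers was 44.1 to 46.8 in null heads against 26.7 to 57.9 in wild type heads, and none was called. The sum of 10 otic markers was 18.6 to 20.7 in null heads against 18.8 to 21.3 in wild type heads, with Hmx2 higher (1.13, adjusted p = 0.00414; 0.50 with normexp), Oc90, an otoconial protein, lower (-2.50, adjusted p = 0.00483; -1.44 with normexp) and 1 further marker higher. The sums of the crest, ectoderm and otic markers overlapped between the groups.

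Of other cells, erythroid markers summed to 423 to 858 in null heads against 537 to 743 in wild type heads, with Klf1 alone lower (-1.04, limma adjusted p = 0.0216; not called without the filter, 0.0508, or without null replicate 1, 0.0834, or 3, 0.0833). Endothelial markers summed to 7.48 to 8.86 in null heads against 7.16 to 11.3 in wild type heads and heart muscle markers to 1.19 to 1.49 against 0.856 to 3.60, with none called on either list. For Kdr, on the endothelial list, the brightest probe gave -0.22 (limma adjusted p = 0.494). Its other probe gave 0.76 (limma adjusted p over all probes of 0.0217).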

How the data were processed

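RNA of 6 head samples, 3 Arid3b-null and 3 wild type, each from 4 pooled embryos, was labelled with Cy3 and hybridised to one-colour Agilent arrays, per the labels' protocols. The deposited scanner files hold the intensity of each spot, after background subtraction; the file headers name Feature Extraction 10.7.3.1. The deposited value table holds the authors' log2 values for 24181 rows, with column medians of 6.76 to 6.77 and correlations of at least 0.999 with the scanner signal; the sources used here do not state how it was scaled or centred, and it served as an alternative.

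The processed signal was taken as log2 minus the 75th percentile of each array. Control spots and outlier flags did not enter, and replicate spots were averaged. Of 39429 non-control probes, 26424 had 1 gene symbol, none had several and 13005 had none, by RefSeq accession (GRCm38.p6 table). The build in the file headers is an older one, so that table gave names and gene order only. Probes had to be well above background on all 3 arrays of a group and measured on at least 5 arrays, and the brightest probe stood for a gene. Where no array of a group measured a gene well above background, its fold sets the bright group's mean against a raised dim group. On each dim array the higher of the probe's own signal and a floor was taken. The floor was the lowest signal well above background on that array. Such a fold is not a strict lower bound, since a probe above the floor can still be dim. The differences of Foxf1 and Gad1 were smaller with normexp. The test was that of limma 3.58.1 under R 4.3.3 (lmFit, eBayes, Benjamini-Hochberg, threshold 0.05) over 14916 genes. The code was tested on simulated data. Pools are the replicates; litters are not described in the sources used here, and p-values reflect the spread among the pools alone. The number of arrays limits the precision.

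The members, gene lists and tests were chosen with earlier results of these data known. Genes named were the Dlx genes and their antisense transcripts, Arid3b, measured neighbours, up to 4 members of each list with the smallest p, and for each Dlx gene the 3 genes with the most similar values over the arrays. Edn1, Pitx1, Gsc, Hand1, Msx2, Alx4, Hes5, Sox2, Msi1, Pax6 and Eya1 were added after their values were seen. A result for a single item of the lists is not reported here. Alternatives were normexp background correction (offset 50) on the median signals, other normalizations, the value table, other filters and probe rules, other variance models, array weights, slide as a block, a threshold of 0.01 and leaving out each array.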

Additional observations from a re-analysis of the deposited data

How the results depend on the processing

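Dlx1 and Dlx2 remained lower and called in each of 16 alternatives, and 2 Dlx genes were also called at an adjusted p under 0.01. With array weights 4 Dlx genes were called, as were 9279 of all genes, 17 neighbours and 70 genes on the lists, against 3508, 9 and 31. Without the filter on dim probes 2270 genes were called, and at an adjusted p under 0.01 1273 were. Leaving out each array in turn gave 1464 to 5213 called genes, 17 to 44 called genes on the lists and 7 to 11 called neighbours. The direction turned for Dlx6 with array weights (0.018), for the ratio of Dlx1 to Dlx2 with normexp (0.064), and on leaving out arrays for Dlx4 (-0.24 to 0.058) and for the ratio of Dlx5 to Dlx6 (-0.073 to 0.12). The causes were not tested.

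With slide as a replicate block, 2 Dlx genes were again called (adjusted p of 0.00519 for Dlx1 and 0.00911 for Dlx2), with 3693 of all genes, 9 neighbours (Itga3 in place of Itga6), 34 genes on the lists and 3 Dlx probes, the same number as without the block. Arrays of the same number deviated together with correlations of -0.20, 0.15 and 0.42, so the numbers were not taken to pair the samples. The arrays are 3 against 3, and dim probes such as that of Dlx6os1 depend most on the background correction.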

Other observations

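For each Dlx gene the 3 genes with the most similar log2 values over the 6 arrays were listed, by Pearson correlation, as a description; the arrays share the genotype groups and the scaling. Closest to Dlx1 were Bet1 (r = 0.999), Astn1 (0.997) and Camk4 (0.997), all lower in null heads (log2 differences of -0.45, -1.01 and -1.24). Closest to Dlx2 were Ppp6c, Sall2 and D4Ertd617e (r = 0.999 each), of which Ppp6c (-0.67) and D4Ertd617e (-1.39) were called and Sall2 (-0.20) was not. Closest to Dlx3 was Hpx (r = 0.988), then Eno4 (0.985) and Colq (0.982). Closest to Dlx4 was Cdk19 (r = 0.990), then Ccl9 (0.986) and Tgm3 (0.980). Closest to Dlx5 was Nccrp1 (r = 0.993), then Terf2 (0.989) and Stambpl1 (0.985), and closest to Dlx6 was Fam13b (r = 0.996), then Etnk1 (0.993) and Ywhaz (0.985). None of the genes closest to Dlx3, Dlx4, Dlx5 or Dlx6 was called by limma.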
